A study of Mus musculus with 8 samples.

Results

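The chromatin factors described here are 10 mouse genes whose proteins are known to activate Hoxa genes or to keep them active: Kmt2a and Kmt2d, Men1 and Psip1, Dot1l, Mllt1, Mllt3 and Aff1, and Kdm6a and Kdm6b. They were taken by name, and a probe was assigned to a gene where its transcript accession belonged to that gene in the RefSeq annotation. Of the 10 genes 8 had a probe, with 17 probes among them, out of 17016 named genes and 41174 probes on the array. No probe matched Kmt2a or Kmt2d by this rule, and both are not analysed here.

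Messenger RNA of haematopoietic stem and progenitor cells (HSPCs) from 4 mice was measured on 8 one-colour Agilent whole-genome arrays. Bone marrow of each mouse was depleted of lineage-positive cells, cultured for 2 days, and divided between a retroviral shRNA against Pcgf1 (4 cultures) and a control shRNA (4 cultures), so every mouse gave 1 culture of each kind. Both groups carried the Runx1 Δ/Δ genotype on a mixed C57Bl/6 and 129SvJ background, and no Runx1 wild-type cells were compared. Both received SCF at 50 ng/ml, Flt3 ligand at 100 ng/ml, IL-11 at 100 ng/ml and IL-3 at 10 ng/ml in culture, and puromycin at 5 µg/ml from 24 h after transduction for 36 h. The labels name no second Pcgf1 shRNA, and they do not give the age or sex of the mice or what drove the Runx1 deletion. The comparison asks which transcripts differ after depletion of Pcgf1 in cells of this genotype. The Runx1 probe measured 0.81 to 1.21 with the Pcgf1 shRNA and 0.50 to 0.94 with the control shRNA, as log2 relative to the 75th percentile of the array, and was well above background on all 8 arrays. The labels do not say which exons were deleted, so this probe does not check the deletion.

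Pcgf1 belongs to a variant Polycomb repressive complex that places ubiquitin on histone H2A at CpG-rich promoters. The factors described here work on the opposite side of that balance. Kmt2a (MLL1) and Kmt2d (MLL4) methylate lysine 4 of histone H3. Menin, the product of Men1, tethers MLL1 to chromatin together with LEDGF, the product of Psip1. Dot1l methylates lysine 79 of histone H3 in transcribed genes, and ENL (Mllt1), AF9 (Mllt3) and AF4 (Aff1) belong to complexes that promote transcript elongation. UTX (Kdm6a) and JMJD3 (Kdm6b) remove methyl groups from lysine 27 of histone H3, the mark of Polycomb repressive complex 2. In blood this machinery is known for its part in leukaemia with MLL rearrangements, where MLL1 is fused to partners such as AF9, ENL or AF4 and Hoxa genes stay active.

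Mllt3 is the member that the results below turn on, and it was measured by probes for 2 transcript accessions. RefSeq gives it more than 1 start, and the 250 bases before 2 of these starts are printed 5′ to 3′ on the minus strand of GRCm38.p6, with CpG dinucleotides in capitals, the sequence feature that promoters bound by Polycomb and MLL complexes commonly share. The windows lie at chr4:87806324-87806573 and chr4:88033408-88033657. The tables do not say which window serves which probe.
Mllt3, start near the first window: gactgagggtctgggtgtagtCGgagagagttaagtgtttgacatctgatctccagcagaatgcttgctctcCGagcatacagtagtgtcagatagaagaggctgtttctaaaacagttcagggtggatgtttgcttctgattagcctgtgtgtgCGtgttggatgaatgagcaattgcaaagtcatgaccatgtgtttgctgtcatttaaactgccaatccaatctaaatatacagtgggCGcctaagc
Mllt3, start near the second window: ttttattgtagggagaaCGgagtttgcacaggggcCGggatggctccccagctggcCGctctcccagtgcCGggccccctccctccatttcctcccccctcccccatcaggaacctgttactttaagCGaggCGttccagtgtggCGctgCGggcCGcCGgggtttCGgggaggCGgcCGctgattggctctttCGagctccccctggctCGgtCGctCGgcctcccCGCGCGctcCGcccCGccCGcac
The first window holds 4 CpG dinucleotides, a number reached by 62.2% of the 32851 RefSeq promoter windows of the same length. The second holds 23, reached by 13.3%. Of the 10 members 8 matched a promoter entry, with 12 windows in all, and their CpG count ran between 4 and 44 with a median of 21.5, against a median of 6 over all windows. Dot1l had 44, Mllt1 37, Kmt2a 29, Kmt2d 26 and Kdm6a 15. The 2 windows of Aff1 had 35 and 20, and the 3 of Men1 had 8, 9 and 10, numbers that 37.8% to 43.0% of all windows reach. Psip1 and Kdm6b are named only. The core binding factor motif TGTGGT, searched on both strands, was in 0 of the 12 windows and in 14.0% of all windows. That says only that these letters are not in these windows.

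Signals are given as log2 of the processed intensity relative to the 75th percentile of each array, which is 0 on this scale. They cannot be compared between probes. Spots with a signal well above background made up 54.8% to 62.0% of each array, controls left out, the 75th percentile lay between 519 and 854 intensity units, and 0 spots were saturated. Pcgf1 itself measured −1.63, −1.64, −1.74 and −1.35 in the Pcgf1 shRNA cultures of mice 1 to 4, against −0.24, −0.23, −0.45 and −0.01 in the control cultures. The groups did not overlap, and 37.8% to 41.0% of the control signal was left within a mouse. Pcgf1 fell by 1.36 on the log2 scale (SE 0.12, limma adjusted p = 0.0197). A two-sided exact permutation test gave p = 0.0286, the smallest it can give with 4 cultures a group. That test left the pairing by mouse out of account. A paired permutation test, which swaps the 2 cultures of a mouse only, gave an exact p of 0.125. Pcgf1 was lower in 4 of 4 mice, so 4 pairs can give no smaller value. Without mouse 1, 2 or 3 the limma adjusted p of Pcgf1 was 0.113, 0.352 and 0.0904, at changes of −1.34, −1.34 and −1.38. Kit and Ptprc (CD45), markers of haematopoietic progenitors and of blood cells, were well above background on all 8 arrays. Kit gave a log2 change of −0.17 (limma adjusted p = 0.536), lower with the Pcgf1 shRNA in 4 of 4 mice. Cd34, another progenitor marker, rose by 0.94 (limma adjusted p = 0.0251). Kit, Ptprc and Cd34 were thus detected in all cultures, as were markers of mature blood cells, described further below. In RNA from whole cultures fewer cells of a type and less RNA per cell cannot be told apart.

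None of the chromatin factors changed after Pcgf1 depletion by the test used. With limma and Benjamini-Hochberg adjustment over all genes tested, 0 of the 8 measured members rose and 0 fell at an adjusted p of 0.05. The same test called 0.763% of 17292 genes, 0.596% higher and 0.168% lower, so a count of 0 among 8 is near that background. At an unadjusted p of 0.05 the count of members was also 0, against 12.2% of all genes. With mouse as a block, 0 members were called at the adjusted threshold, against 5.35% of all genes, and 1, Mllt3, had an unadjusted p under 0.05, against 23.5%. Probe by probe the count was 0 of 17 in both fits, against 0.629% and, with the block, 4.97% of all probes.

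The changes were small. Of the members 5 were higher and 3 lower, with a median log2 change of 0.07, against 0.00219 over all genes, and a median size of 0.117, against 0.124. The 95% intervals of 6 of the 8 members lay within a log2 change of 1 in either direction. Those of Mllt3 and Kdm6b reached −1.10 and 1.09. These intervals come from the fit without a block, with 4 arrays a group, and do not show that changes within them are absent. With mouse as a block the interval of Mllt3 was −0.58 to −0.12 and left out 0, but its limma adjusted p of 0.0898 did not pass. No member had groups that did not overlap, which 7.16% of all genes had.

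Men1 encodes menin, the tether of MLL1. It measured 1.39, 1.19, 1.26 and 0.92 in the Pcgf1 shRNA cultures of mice 1 to 4, against 1.13, 1.04, 0.94 and 1.04 in the control cultures. The Pcgf1 shRNA culture was the higher one in mice 1, 2 and 3 and the lower one in mouse 4, and the groups overlapped. The means were 1.19 ± 0.20 with the Pcgf1 shRNA and 1.04 ± 0.08 with the control shRNA (SD, n = 4 each), a log2 change of 0.15 (SE 0.11, limma adjusted p = 0.630).

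Psip1 encodes LEDGF, which reads methylated lysine 36 of histone H3 and brings the menin and MLL1 pair to chromatin. It measured 2.86, 2.85, 2.97 and 3.19 with the Pcgf1 shRNA, against 2.48, 2.80, 2.98 and 3.18 with the control shRNA. Mice 2, 3 and 4 gave almost the same value in both cultures, with differences of 0.05, −0.01 and 0.01, and mouse 1 gave 0.38. The log2 change was 0.11 (SE 0.16, limma adjusted p = 0.833), and 79.4% of the sum of squares over the 8 arrays lay between mice.

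Dot1l encodes the H3 lysine 79 methyltransferase, and its 3 probes gave no common direction. The brightest measured −2.88, −2.65, −2.80 and −2.51 with the Pcgf1 shRNA, against −3.06, −2.56, −2.85 and −2.47 with the control shRNA. The groups covered almost the same range, and 93.0% of the sum of squares lay between mice. Its log2 change was 0.024 (SE 0.15, limma adjusted p = 0.969). The other probes gave −0.14 and 0.0018, and the dimmest of the 3 was well above background on 3 of the 4 control arrays.

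Mllt1 encodes ENL, a reader of acetylated histones in the elongation complexes. Its brightest probe measured 1.23, 1.33, 1.41 and 1.11 with the Pcgf1 shRNA, against 1.02, 1.24, 1.07 and 1.24 with the control shRNA. Mouse 4 was again the one mouse with the lower value in the Pcgf1 shRNA culture, as for Men1. The log2 change was 0.12 (SE 0.10, limma adjusted p = 0.666), and the other 2 probes gave −0.036 and 0.12.

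Aff1 encodes AF4, the scaffold of the super elongation complex. Its brightest probe measured 3.12, 3.02, 3.12 and 2.77 with the Pcgf1 shRNA, against 3.00, 3.22, 3.11 and 2.80 with the control shRNA. Mouse 4 was low in both cultures, and the groups overlapped. The log2 change was −0.029 (SE 0.12, limma adjusted p = 0.953), and a second, much dimmer probe of the same transcript gave 0.18 (limma adjusted p over all probes = 0.679).

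**Figure D1:**
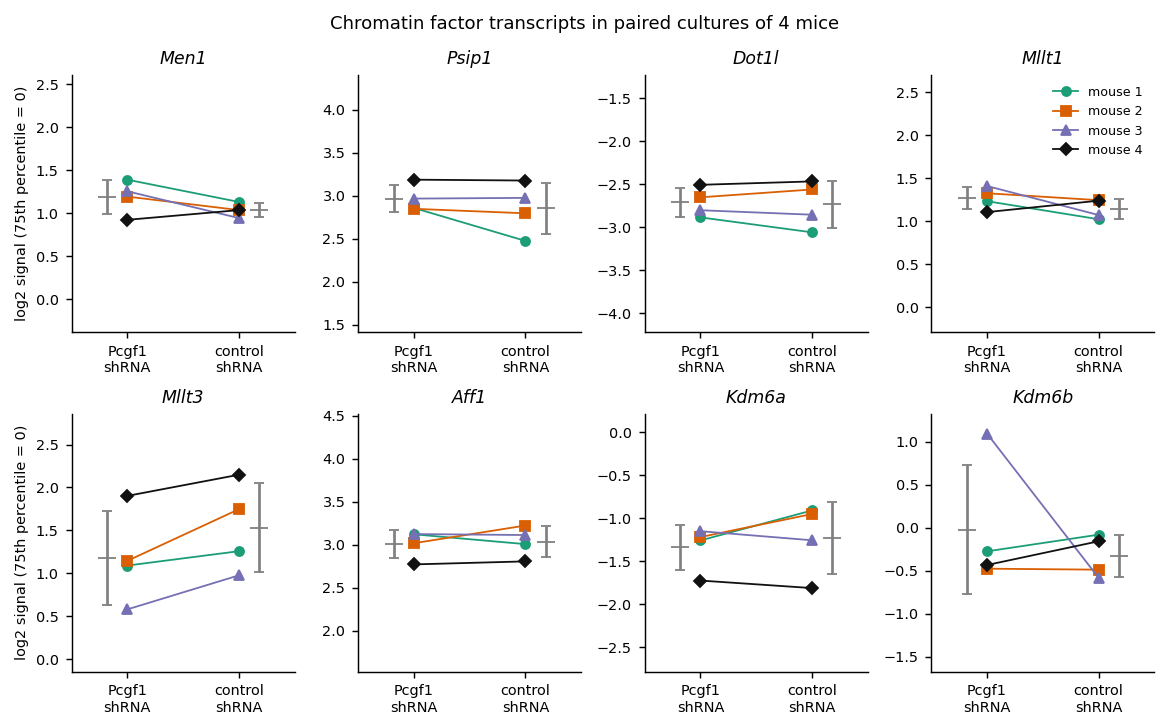
Log2 signal (75th percentile of the array = 0) of the brightest probe of each measured member in the Pcgf1 shRNA and control shRNA cultures. Lines join the cultures of 1 mouse, grey bars are the mean ± SD of 4 cultures, and every panel spans the same log2 range; the groups overlap in all 8 panels, and Mllt3 is the one gene whose 4 lines all slope the same way.

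Mllt3 encodes AF9, a reader of acylated histones that is known to maintain haematopoietic stem cells. It was the one member lower with the Pcgf1 shRNA in all 4 mice, a pattern found in 16.2% of all genes. Its brightest probe measured 1.09, 1.15, 0.58 and 1.90 in the Pcgf1 shRNA cultures of mice 1 to 4, against 1.26, 1.75, 0.98 and 2.15 in the control cultures. Mouse 4 was the highest and mouse 3 the lowest in both groups, and the groups overlapped because mice differed from each other by more than the cultures of 1 mouse did. The means were 1.18 ± 0.54 with the Pcgf1 shRNA and 1.53 ± 0.52 with the control shRNA (SD, n = 4 each). The log2 change was −0.35 (SE 0.33, 95% interval −1.10 to 0.39), or 0.783 of the control signal, with a limma adjusted p of 0.720.

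Within a mouse the Mllt3 differences were −0.17, −0.60, −0.40 and −0.25 in mice 1 to 4. With mouse as a block the same log2 change of −0.35 had a 95% interval of −0.58 to −0.12 and an unadjusted limma p of 0.00946, and its adjusted p of 0.0898 did not pass. Each slide held both cultures of 2 mice, and the mean change was −0.38 for mice 1 and 2 and −0.32 for the other pair.

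All 3 probes for the first accession, NM_029931, gave the same picture. The second measured 0.64, 0.80, 0.19 and 1.53 with the Pcgf1 shRNA, against 0.77, 1.34, 0.54 and 1.81 with the control shRNA. The third measured 0.25, 0.34, −0.33 and 1.38 with the Pcgf1 shRNA, against 0.33, 0.99, 0.20 and 1.59 with the control shRNA. Both were lower with the Pcgf1 shRNA in every mouse, as 15.6% of all probes were, by 0.32 and 0.37 on average, and they passed the test neither without a block nor with it (limma adjusted p with the block, over all probes, 0.0962 and 0.128).

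The 2 probes for the other accession, NM_027326, differed from each other. The brighter measured −2.55, −2.50, −2.94 and −1.45 with the Pcgf1 shRNA, against −2.61, −1.75, −2.53 and −1.21 with the control shRNA. It was lower with the Pcgf1 shRNA in mice 2, 3 and 4 and higher by 0.06 in mouse 1, with a log2 change of −0.34. The dimmer measured −4.14, −4.34, −4.64 and −4.38 with the Pcgf1 shRNA, against −4.39, −4.63, −4.34 and −4.23 with the control shRNA. It was higher with the Pcgf1 shRNA in mice 1 and 2 and lower in mice 3 and 4, with a log2 change of 0.020, and it did not follow the order of mice seen on the other 4 probes. Probes of 1 gene share their RNA, so their number adds no replicates.

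**Figure D2:**
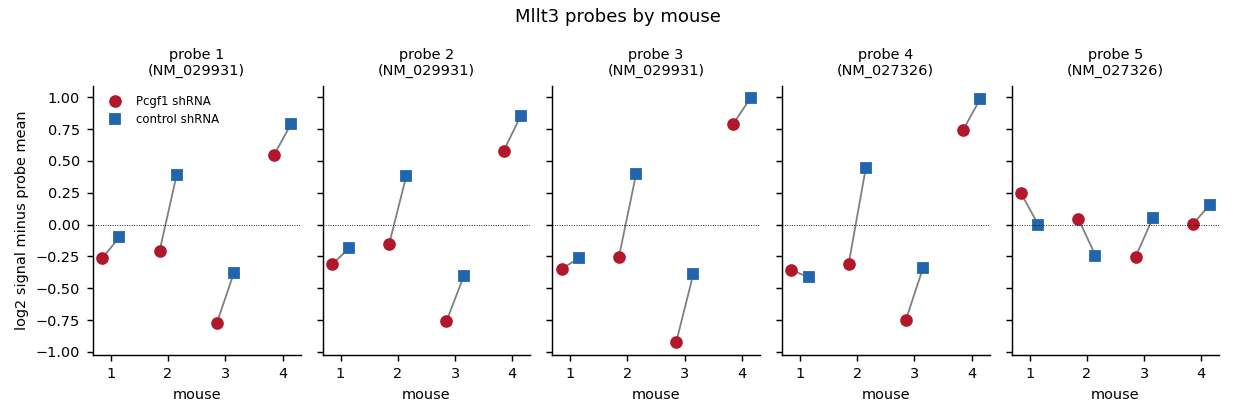
Log2 signal of each of the 5 Mllt3 probes, minus the mean of that probe over the 8 arrays, by mouse, with the Pcgf1 shRNA culture left of the control shRNA culture. On probes 1 to 4 mouse 4 has the highest mean and mouse 3 the lowest, and the within-mouse differences (−0.75 to 0.06) are smaller than the distance between these mice.

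Kdm6a encodes UTX, an X-linked H3 lysine 27 demethylase that also belongs to the MLL3 and MLL4 complexes. It measured −1.26, −1.22, −1.15 and −1.73 in the Pcgf1 shRNA cultures of mice 1 to 4, against −0.91, −0.95, −1.26 and −1.81 in the control cultures. Mouse 4 was the lowest in both groups, and the log2 change was −0.11 (SE 0.22, limma adjusted p = 0.897). The mean change was −0.31 over mice 1 and 2 and 0.10 over mice 3 and 4, which were on different slides.

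Kdm6a is known to escape X inactivation, so its level can follow the number of X chromosomes. Xist, the RNA of the inactive X chromosome, measured −2.22, −2.21, −2.02 and −8.16 with the Pcgf1 shRNA, against −1.71, −2.01, −1.82 and −7.81 with the control shRNA, and it was well above background in mice 1, 2 and 3 only. The Y-linked gene Eif2s3y measured 1.95 with the Pcgf1 shRNA and 2.12 with the control shRNA in mouse 4, and at most −7.07 in the other mice. Ddx3y and Kdm5d, also Y-linked, likewise had their signal in mouse 4 alone, and neither of the 2 probes of Uty, the Y-linked relative of Kdm6a, was above background on any array. Mouse 4 thus differed from the other mice in its sex-linked transcripts as well as in Kdm6a. The part of this in the level of Kdm6a was not tested, as the labels give no sex and 1 mouse has no spread.

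**Figure D3:**
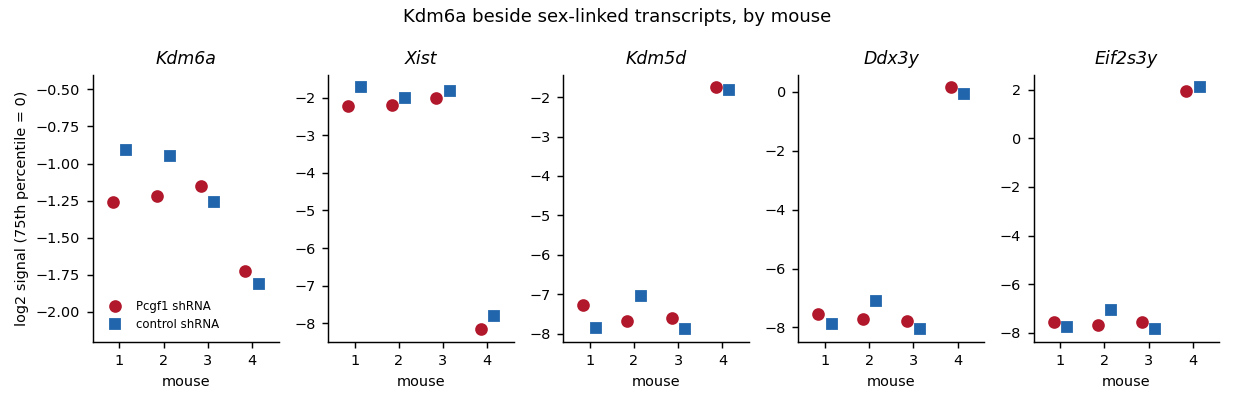
Log2 signal (75th percentile of the array = 0) of Kdm6a, Xist and 3 Y-linked genes by mouse, with the Pcgf1 shRNA culture left of the control shRNA culture and a separate axis for each gene. Kdm6a lies between −1.26 and −0.91 in mice 1 to 3 and at −1.73 and −1.81 in mouse 4, the mouse with low Xist and high Y-linked signal.

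Kdm6b encodes JMJD3, an H3 lysine 27 demethylase known to be induced by inflammatory signals. It measured −0.27, −0.48, 1.10 and −0.43 with the Pcgf1 shRNA, against −0.08, −0.49, −0.58 and −0.16 with the control shRNA. The Pcgf1 shRNA culture of mouse 3 stood far above the other 7 cultures, which lay close together. The log2 change was 0.30 (SE 0.34, limma adjusted p = 0.774), and without mouse 3 it was −0.15, so its direction rested on that 1 culture. Kdm6b had 1 probe with 1 spot on each array, so this high value is the reading of 1 spot.

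**Figure D4:**
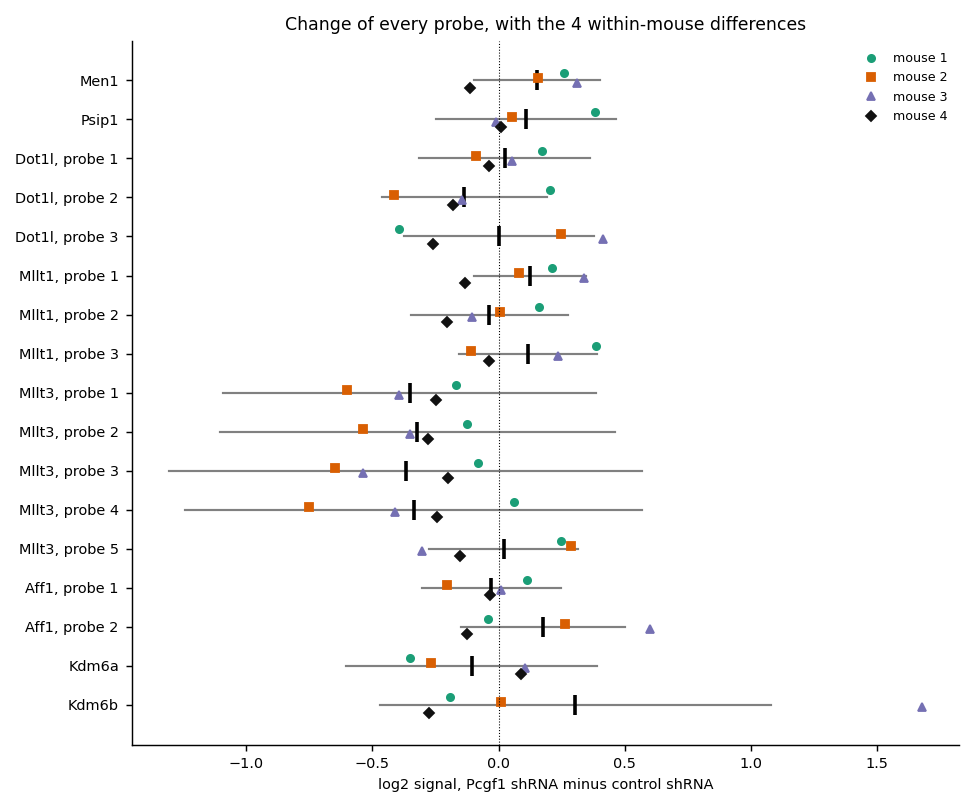
Log2 change, Pcgf1 shRNA minus control shRNA, of the 17 probes of the measured members, with the 95% interval of the fit without a block (grey line), its mean (black tick) and the 4 within-mouse differences (symbols). Every interval holds 0, and the one difference beyond 1 in size is that of Kdm6b in mouse 3, at 1.68.

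On most member probes the larger part of the sum of squares lay between mice. Over the 17 member probes the median share of the sum of squares between mice was 79.4%, against 55.6% over 22681 kept probes with a value on every array. The median share between shRNAs was 8.91% over the member probes, against 12.8%. The share between mice was the larger one on 16 of the 17 probes (94.1%), against 79.1% of all probes. The brightest probes of Mllt1 (24.3%) and Kdm6b (28.7%) had the lowest shares between mice among the members. A low share is not a small spread, and the mouse means of Kdm6b ran from −0.48 to 0.26. These shares are descriptions, since probes of 1 gene share their RNA and each share rests on 4 mice. They were not scaled for the number of groups, and there are more mice than shRNAs. The share between mice would therefore be the larger one on most probes even with no difference between mice.

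The wider machinery around these factors gave the same count. The 5 lists of this machinery held MLL-type enzymes with their core, their partner subunits, and the DOT1L and elongation complexes. They also held the H3 lysine 27 and lysine 4 demethylases together with Kdm2a and Kdm2b, and other chromatin activators. The genes of these lists numbered 69, members included, and 59 of them were tested. Of these 0 rose and 0 fell without a block, where 0.763% of all genes were called, so a count of 0 is near that background. With mouse as a block 0 rose and 0 fell as well, against 5.35% of all genes called. Of the 59 genes 3 had an unadjusted p under 0.05, against 12.2% of all genes (6 with the block, against 23.5%). Their median log2 change was 0.04, with 40 higher and 19 lower, against 0.00219 over all genes, of which 8727 were higher and 8565 lower.

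In the list of MLL-type methyltransferases and their core, 8 of 10 genes were tested and the median log2 change was 0.04. Dpy30 and Wdr5, core subunits of every MLL-type complex, gave 0.21 and 0.14, and Kmt2b, the close relative of Kmt2a, gave −0.12 (limma adjusted p = 0.502, 0.583 and 0.651). A second, dimmer probe of each gave larger changes of 0.26, 0.23 and −0.33 (limma adjusted p over all probes = 0.504 or less, at 0.362, 0.424 and 0.433). Of the partner subunits 12 of 13 were tested, with a median of 0.08. Besides Men1 the smallest p-values were those of Bod1 (0.19), a subunit of SET1B complexes, and Paxip1 (0.12), which encodes PTIP of the MLL3 and MLL4 complexes. None of these genes passed the test.

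In the list of DOT1L and elongation complexes 17 of 20 genes were tested, with a median log2 change of 0.04. Eaf1, a partner of the ELL elongation factors, measured 2.44, 2.45, 2.49 and 2.49 with the Pcgf1 shRNA, against 2.21, 2.21, 2.21 and 2.28 with the control shRNA. The groups did not overlap, as in 7.16% of all genes, and the spread within each was small. The log2 change of 0.24 (SE 0.07) did not pass the test (limma adjusted p = 0.175, with the block 0.0911). A second Eaf1 probe gave 0.036. The 2 probes of Eaf2 differed in sign, with 0.17 on the brighter and −0.25 on the other, and Aff4, another scaffold of the super elongation complex, gave 0.13.

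Among the demethylases 8 of 11 genes were tested, with a median log2 change of 0.06. Kdm2b, which encodes a CpG-binding H3 lysine 36 demethylase of the same variant Polycomb complex as Pcgf1, measured 1.67, 1.70, 1.77 and 1.55 with the Pcgf1 shRNA, against 1.43, 1.31, 1.30 and 1.33 with the control shRNA. All 4 Pcgf1 shRNA cultures were above all control cultures, and 7.16% of all genes had groups that did not overlap. The log2 change of Kdm2b was 0.33 (SE 0.08, limma adjusted p = 0.124, with the block 0.0687). Its other 2 probes gave 0.39 and 0.60. Kdm1b and Kdm2a, demethylases of H3 lysine 4 and lysine 36, gave 0.18 and 0.11, and none of these genes passed the test.

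Among the other activators 15 of 16 genes were tested, with a median log2 change of 0.03. Cbx8, a Polycomb protein that is also a known cofactor of MLL-AF9, gave 0.57 (limma adjusted p = 0.282, with the block 0.0749) and was well above background on 3 of the 4 control arrays. Kat7, an acetyltransferase, and Nsd3, an H3 lysine 36 methyltransferase, gave 0.14 and −0.13. None passed the test.

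Some of the genes known as targets of MLL or menin in blood cells rose. Of 23 listed genes 21 were tested, 6 rose and 0 fell without a block, against 0.596% of all genes higher and 0.168% lower. With the block 10 rose and 0 fell, against 2.92% higher and 2.43% lower. The median log2 change of the list was 0.35. The list holds the Hoxa genes, which were already known to differ on these arrays, so its direction is not independent evidence. Over all the lists the count of 6 was 0 without mouse 1, 2 or 3 and 5 without mouse 4. Hoxa4, Hoxa7, Hoxa9, Hoxa10 and Zfp521 were among the 6. Hoxa4, Hoxa7 and Hoxa9 rose by 0.90, 1.68 and 1.45 on the log2 scale. Hoxa10 was well above background on 0 of 4 control arrays, so its rise is a bound of at least 2.22-fold. It was kept for the test through the Pcgf1 shRNA arrays alone. With probes required to be above background on all arrays, the count of 6 over all the lists became 5. The genes that passed with the block only were Hoxa5, Meis1, Bcl2 and Runx2. Meis1, Bcl2 and Runx2 had log2 changes of 0.79, 0.41 and 0.35 on their brightest probes. With the block the other Meis1 probe, at 0.70, did not pass (limma adjusted p over all probes = 0.0979). The other Runx2 probes, at 0.38 and 0.23, did not pass either (0.0760 and 0.334). The other Bcl2 probe, at 0.48, did (0.0292). Hoxa5 was well above background on 1 of 4 control arrays, and its fitted log2 change of 1.73, or 1.29 without mouse 2, rests on control values that mostly were not. Hoxa5 too was kept for the test through the Pcgf1 shRNA arrays alone.

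Zfp521 lies outside the Hoxa cluster and passed without a block. Zfp521, a zinc finger regulator of immature blood cells, measured −1.55, −1.31, −1.42 and −1.64 with the Pcgf1 shRNA, against −2.23, −2.05, −2.47 and −2.16 with the control shRNA. Every Pcgf1 shRNA culture was above every control culture, a rise of 1.68-fold (log2 change 0.74, SE 0.12, limma adjusted p = 0.0353). Groups that did not overlap were found in 7.16% of all genes. Zfp521 was listed with earlier results of these data known, so its rise is not independent evidence either.

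**Figure D5:**
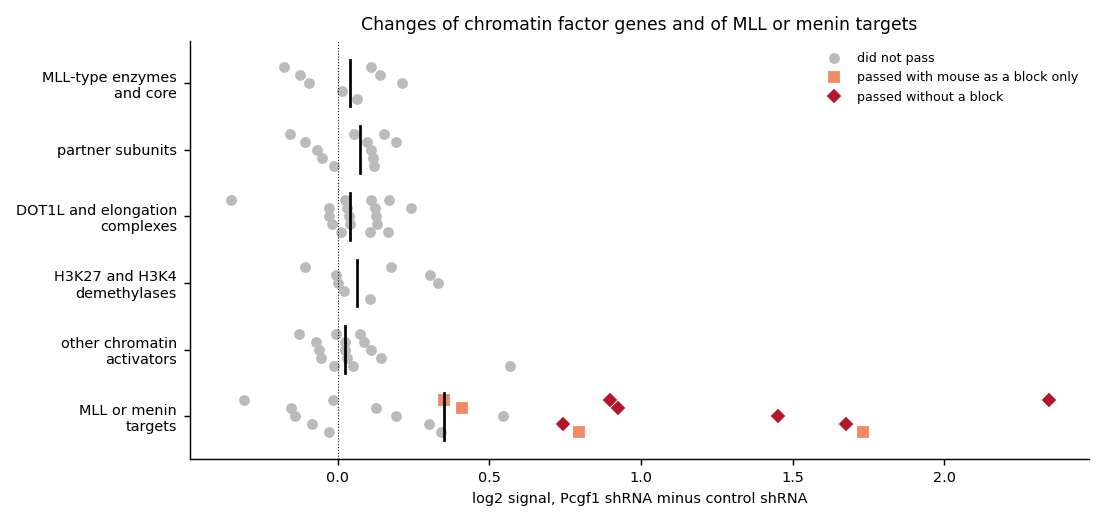
Log2 change, Pcgf1 shRNA minus control shRNA, of each tested gene in 5 lists of chromatin factors and in the list of MLL or menin targets, with the median of each list as a black bar. The 5 upper lists hold no gene that passed, and in the lowest list 6 passed without a block and 4 more with it; the point furthest right, Hoxa10, is a fitted value of a gene below background in the control cultures.

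Markers of other cell types moved with the shRNA as well. The summed signal of 10 neutrophil markers, relative to the 75th percentile of the array, was 11.6 to 44.5 in the Pcgf1 shRNA cultures, against 84.6 to 233 in the control cultures. Of these 10 markers 6 were well above background on each Pcgf1 shRNA array and 8 on each control array. Of the 8 neutrophil markers tested 0 rose and 2 fell without a block, and 1 rose and 7 fell with it. The sum over 10 HSPC markers was 47.4 to 58.3 with the Pcgf1 shRNA, against 37.4 to 43.5 with the control shRNA. Without Cd34, a sum taken after the values were seen, it was 25.2 to 26.6 with the Pcgf1 shRNA and 24.0 to 28.8 with the control shRNA. Of the 10 HSPC markers 2 rose and 0 fell without a block, and 3 rose and 1 fell with it, with 5 higher, 5 lower and a median log2 change of 0.029. Markers of 5 other types had overlapping ranges of the sum, although most single markers were lower. Of the tested markers 9 of 9 erythroid ones were lower (median log2 change −0.74), 8 of 9 monocyte ones (−0.52), 7 of 10 mast cell ones (−0.27), 7 of 9 megakaryocyte ones (−0.22) and 3 of 4 T or NK cell ones (−0.097). Without a block 1 mast cell marker fell and 1 T or NK cell marker rose. With it 3 mast cell, 2 erythroid and 2 monocyte markers fell and 1 T or NK cell marker rose, and 0 megakaryocyte markers passed in either fit. The sum was 79.9 to 134 with the Pcgf1 shRNA and 95.2 to 193 with the control shRNA for monocytes, and 46.6 to 184 and 113 to 249 for erythroid cells. It was 54.1 to 190 with the Pcgf1 shRNA and 90.2 to 170 with the control shRNA for megakaryocytes, 38.4 to 55.2 and 45.8 to 69.4 for mast cells, and 2.70 to 3.72 and 2.30 to 4.09 for T or NK cells. B cell and stroma markers had low sums in all cultures, with 1 B cell marker falling in both fits and 2 stroma markers rising with the block only. The sums over B cell markers were 1.93 to 2.16 with the Pcgf1 shRNA, against 2.41 to 2.94 with the control shRNA, and those over stroma or endothelium markers were 2.13 to 2.37, against 1.59 to 1.93. The part of these shifts in the values of the members and of the target list was not tested.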

How the data were processed

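The deposited files of single arrays hold, per the file headers, each spot's intensity after background subtraction and detrending by the scanner software, with no normalization between arrays, and flags for spots above background. Per the submitters' processing notes, Agilent Feature Extraction 10.1 was used. The authors' deposited table of values is on a log2 scale, centred per probe, with r of 1.000 and a slope of 1.000 against the spot files over 11674 probes, and was used as an alternative. The number of arrays limits the precision.

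Processed intensities were put on a log2 scale and shifted so that the 75th percentile of non-control spots was 0 on each array. Control spots and 242 values marked as non-uniform were left out, and spots of a probe were averaged. The filter asked that every spot of a probe be well above background throughout 1 group or both, which left 22737 of 41174 probes. Probes were named by matching accessions to RefSeq (24375 probes), and of several probes of a gene the brightest was used, giving 17294 genes. A test was possible for 17292. Values per gene come from the fit over genes, and those of further probes from the fit over probes.

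The tests were two-sided limma fits without a block (lmFit, eBayes; limma 3.58.1, R 4.3.3), called at a Benjamini-Hochberg adjusted p of 0.05 over all features. Each pair of cultures came from 1 mouse, so mouse as a block stands beside it. Deviations from the group means correlated within mice 1 to 4 with r of 0.44, 0.48, 0.41 and 0.64, against at most 0.25 with another mouse. The procedure was tested on simulated data. Named genes are the members, Pcgf1, Runx1 (log2 change 0.27, limma adjusted p = 0.473), and, of each list, the 3 genes with the smallest p and those that passed. Some genes that the rule takes are counted but not reported here by name. The rule also asked for genes with a pattern like Kmt2a, which was not measured. Genes with a pattern like Mllt3 were taken in its place, after its values were seen. The members and lists were chosen with earlier results of these data known.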

Additional observations from a re-analysis of the deposited data

Results flagged for a closer look

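In 86 groups of 4 cultures, formed from the member probes and the named genes, the highest or lowest culture was compared with the rest by Dixon's test at its 95% critical value, which chance passes in about 1 in 20 groups. It was passed in 6, which is not read as an excess, and shares over all genes on single arrays are given below. Kdm6b measured 1.10 in the Pcgf1 shRNA culture of mouse 3, against −0.48 to −0.27 in the other Pcgf1 shRNA cultures. Dpy30 measured 5.01 in the Pcgf1 shRNA culture of mouse 4, below the 5.41 to 5.45 of the others, and without mouse 4 its log2 change was 0.30. Eaf1 measured 2.28 in the control culture of mouse 4, above the 2.21 of each of the others. Hoxa9 measured −1.36 in the control culture of mouse 1, against −2.27 to −2.18 in the others, and Bcl2 measured 0.81 there, against 0.56 to 0.59. Hoxa5 measured −7.21 in the control culture of mouse 2, against −5.71 to −5.44 in the others.

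By the same test 103 of 17244 genes (0.597%) were high on the Pcgf1 shRNA array of mouse 3, 66 of them with a symbol, and Kdm6b was number 8 among these by its distance to the next culture, 1.37 on the log2 scale. The arrays of mouse 4 had the largest such counts of the 8 arrays. In its Pcgf1 shRNA culture 411 genes were high (2.38%) and 690 low (4.00%), and in its control culture 317 were high (1.84%) and 482 low (2.80%). On the arrays of the other mice no such share was above 0.789%.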

How the results depend on the processing

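The count of members called and the count of member probes called were 0 under every alternative run. The count over all genes, 132 in the main test, was 925 with mouse as a block, 1657 with array weights, 77 with normexp background correction and 0 with no filter on dim probes (2199 genes at an unadjusted p under 0.05), and it lay between 0 and 363 when mice or single arrays were left out, with 0 without mouse 2 or mouse 3, 1 without mouse 1 and 363 without mouse 4. With the block it was 284 without mouse 1, 0 without mouse 2 and 306 without mouse 3. The share of calls that were rises was 78.0%, against 54.6% with the block, 58.4% with array weights and 67.5% with normexp. The count over the pathway lists, 6 in the main test, was 10 with the block, 16 with array weights, 2 with normexp, 0 with no filter and 0 to 6 with arrays left out (0 without mouse 1, 2 or 3 and 5 without mouse 4, and with the block 0 without mouse 2 and 2 without mouse 4). Without a filter the change of Pcgf1 was −1.36 with a limma adjusted p of 0.104, and with arrays left out it was −1.44 to −1.28, past the threshold in part of these fits only (0.113 without mouse 1, 0.352 without mouse 2, 0.0904 without mouse 3, and, with the block, a change of −1.34 and 0.0895 without mouse 2).

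Men1, Mllt1 and Mllt3 kept their direction in 26 of 26 alternatives, with log2 changes of 0.09 to 0.24, 0.05 to 0.21 and −0.59 to −0.15. Dot1l turned to −0.030 with normexp, −0.036 with the mean of its probes and −0.026 without mouse 1, and Aff1 to 0.011, 0.073 and, without mouse 2, 0.030, with or without the block in these last cases. With arrays left out the changes ran between −0.084 and 0.11 for Dot1l, −0.018 and 0.22 for Psip1, −0.11 and 0.050 for Aff1, −0.30 and 0.023 for Kdm6a, and −0.15 and 0.50 for Kdm6b. The cause of these shifts was not tested. Blocking by mouse changed no call among the members.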

Other observations

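Among named genes tested, the 5 whose values over the 8 arrays, each centred on its own mean, lay closest to the brightest Mllt3 probe were Vamp5, Pcbp3, Reep6, Agpat3 and Rcn3, a measure chosen after the Mllt3 values were seen. The root mean square difference was 0.0735 for Vamp5, 0.0829 for Pcbp3, 0.103 for Reep6, 0.106 for Agpat3 and 0.110 for Rcn3 on the log2 scale. In each of the 5 genes mouse 4 was the highest mouse in both groups. Vamp5, an endosomal membrane protein of the synaptobrevin family, measured 3.39, 3.48, 2.87 and 4.02 with the Pcgf1 shRNA, against 3.47, 4.00, 3.35 and 4.43 with the control shRNA. Its log2 change was −0.37, with a limma adjusted p of 0.671 and of 0.0851 with mouse as a block, and like Mllt3 it was lower with the Pcgf1 shRNA in 4 of 4 mice. Pcbp3 and Agpat3 were also lower in 4 of 4 mice, and Reep6 and Rcn3 in 3 of 4. None of the 5 passed the test with or without the block. The genes were picked for values close to those of Mllt3 on these arrays. Their shared order of mice and direction therefore follow from the choice and are no further evidence.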
